A study of Rattus norvegicus with 6 samples.

Results

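The genes of major histocompatibility complex (MHC) class II antigen presentation were followed in back skin of rats whose rash followed blockade of EGFR, the epidermal growth factor receptor. They were 10 genes chosen by symbol, each found in exactly 1 of the 34225 loci of the count table, and all 10 were among the 16398 loci with enough counts to be tested. Sprague-Dawley rats, an outbred stock, gave 6 mRNA libraries in 3 groups of 2. The untreated rats received no inhibitor per the labels. The gefitinib rats received 80 mg/kg and the afatinib rats 30 mg/kg by mouth each day until rash appeared. Gefitinib is a reversible EGFR inhibitor, and afatinib binds EGFR and its relatives covalently. Doses differ between the inhibitors and the number of days may differ. Age, sex and the number of animals behind a library are not given in the labels used here. Because nothing there says that libraries of a group came from separate animals, p-values measure only the spread between these samples, which may be technical.

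Class II molecules are pairs of an α and a β chain that carry peptides from endosomes to the cell surface, where CD4 T cells read them. In the endoplasmic reticulum the pair is held by the invariant chain, the product of Cd74, which is later cut down by the protease cathepsin S, the product of Ctss. The remaining fragment is exchanged for peptide by the DM chaperone, and DO restrains DM. Langerhans cells of the epidermis, dermal dendritic cells, macrophages and B cells carry class II molecules constitutively, and other cells of skin can acquire them. Transcription depends on the coactivator CIITA, which binds no DNA itself and is recruited by factors on the X and Y boxes of class II promoters. In the rat, RT1-Ba and RT1-Bb encode the chains of one classical class II molecule, RT1-Da and RT1-Db1 those of the other.

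The promoter letters on which CIITA's partners sit are shown because the results below turn on whether these genes move together. RefSeq promoter windows of 300 bases (250 before and 50 after the start site, GRCr8) were found for 8 of the 10 genes; Ciita and RT1-DMb had none. Windows were searched on both strands for the Y box CTGATTGG and its core GATTGG, the X box core GCAACNG and the full X box, which is that core followed by ATG, and the interferon-stimulated response element, GAAA and GAAA with any 2 bases between. Each full box contains its core, so those matches overlap. For 7 genes 100 bases holding the matches follow, 5′ to 3′ on the strand of the gene, with matched letters in capitals.
RT1-Da, chr20:4515301-4515400, plus strand: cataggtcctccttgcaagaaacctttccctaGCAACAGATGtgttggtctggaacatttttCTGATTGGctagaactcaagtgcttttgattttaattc
RT1-Db1, chr20:4560208-4560307, minus strand: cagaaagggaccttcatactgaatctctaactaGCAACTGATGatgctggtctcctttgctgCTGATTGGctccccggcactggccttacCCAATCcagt
RT1-Ba, chr20:4576949-4577048, plus strand: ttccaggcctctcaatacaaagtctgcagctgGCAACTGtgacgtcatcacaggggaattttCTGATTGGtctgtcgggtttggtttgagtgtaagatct
RT1-Bb, chr20:4604145-4604244, minus strand: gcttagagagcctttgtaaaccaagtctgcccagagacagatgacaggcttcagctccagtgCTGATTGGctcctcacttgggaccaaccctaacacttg
RT1-DMa, chr20:4712365-4712464, minus strand: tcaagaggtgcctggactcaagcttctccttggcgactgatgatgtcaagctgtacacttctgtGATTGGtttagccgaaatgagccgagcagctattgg
RT1-DOa, chr20:4758496-4758595, minus strand: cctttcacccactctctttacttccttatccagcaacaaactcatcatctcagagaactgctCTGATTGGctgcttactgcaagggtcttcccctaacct
Ctss, chr2:185775300-185775399, plus strand: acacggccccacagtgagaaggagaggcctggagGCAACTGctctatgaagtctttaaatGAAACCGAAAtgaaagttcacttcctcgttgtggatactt

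The full Y box was present in RT1-Da, RT1-Db1, RT1-Ba, RT1-Bb and RT1-DOa, against 3.5% of all 33469 windows. It lay at bases −52 to −45 from the start site in RT1-Da, −83 to −76 in RT1-Db1 and −46 to −39 in RT1-Ba. The full X box was present in RT1-Da and RT1-Db1, against 0.14% of windows, and RT1-Ba held its core, which 12.2% of windows held. From the end of the X box core to the Y box there were 23 bases in RT1-Da and RT1-Ba and 22 in RT1-Db1. RT1-Db1 also held a Y box core on the opposite strand at −55 to −50. RT1-DMa had only the Y box core, which 14.8% of windows had. Ctss held the X box core and, at −36 to −27, the interferon-stimulated response element, which 3.92% of windows held. None of these letters were in the Cd74 window. A match describes the letters and does not show that a factor was bound in this skin.

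Of the 10 genes, 3 were lower in gefitinib rash than in untreated skin: Cd74 and the classical chain genes RT1-Da and RT1-Db1, all at 0.29 to 0.40 of the untreated level. None passed the test in afatinib rash, where 3.98% of all genes passed, and none was higher in either. By edgeR's quasi-likelihood test with Benjamini-Hochberg adjustment over all genes, at an adjusted p under 0.05, 5.45% of all genes were lower with gefitinib and 0.372% lower with afatinib. The 3 calls with gefitinib rest on every untreated and gefitinib library, since 0 remained without untreated replicate 1 or 2 or gefitinib replicate 1 or 2. That loss was general: over all genes the calls fell from 2906 to 10, 0, 808 and 371 in those settings. They also rest on the scaling between libraries, and 0 were called when counts were scaled by library size only.

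Levels per gene length, as deposited in FPKM, set the genes in an order. In untreated skin Cd74 stood at 224 ± 98.6 FPKM (mean ± SD, n = 2), above RT1-Da at 39.7 ± 12.1 FPKM. Ctss at 18.8 ± 10.1 FPKM and RT1-Db1 at 16.2 ± 2.23 FPKM followed, with overlapping values. RT1-Ba was at 4.22 ± 3.46, RT1-Bb at 2.98 ± 1.45, RT1-DOa at 1.79 ± 0.465, RT1-DMb at 1.55 ± 2.11, Ciita at 0.882 ± 0.309 and RT1-DMa at 0.631 ± 0.700 FPKM, each overlapping the next. Neighbours among these low genes did not differ beyond their spread, although RT1-Ba, RT1-Bb and RT1-DOa each lay above Ciita and RT1-DMa in both libraries. Cd74, RT1-Da and the pair of Ctss and RT1-Db1 were separated from each other and from the rest. In gefitinib rash Cd74 was at 62.9 ± 22.6 FPKM and RT1-Da at 15.04 ± 3.60 FPKM, and in afatinib rash they were at 146 ± 47.7 and 31.5 ± 11.2 FPKM (n = 2 each).

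Cd74 (ENSRNOG00000018735, chromosome 18, 56071478 to 56080849, plus strand, in the coordinates of the files, whose build is not named in the sources used here) encodes the invariant chain. Its level in CPM, a count scaled to a common depth with TMM factors, was 406 and 212 in the untreated libraries, 113 and 65.5 with gefitinib, and 256 and 165 with afatinib. Both gefitinib libraries lay below both untreated and both afatinib libraries, while afatinib and untreated libraries overlapped. The log2 fold change with gefitinib was −1.79 ± 0.46 (SE; 95% interval −2.87 to −0.72; edgeR adjusted p = 0.0393), a level 3.47-fold lower. With afatinib it was −0.55 ± 0.45 (−1.60 to 0.50; edgeR adjusted p = 0.504), an interval with both directions in it.

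RT1-Da (ENSRNOG00000032844, chromosome 20, 4127644 to 4132616, minus strand), the α chain whose promoter above carries both full boxes, stood at 120 and 76.9 CPM in untreated skin. It was at 45.1 and 31.4 CPM with gefitinib and at 101 and 62.3 CPM with afatinib. Again only the gefitinib libraries were separated from the other groups. The log2 fold change with gefitinib was −1.36 ± 0.36 (edgeR adjusted p = 0.0434). With afatinib it was −0.27 ± 0.36 (95% interval −1.11 to 0.57; edgeR adjusted p = 0.690).

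Its β chain partner RT1-Db1 (ENSRNOG00000033215, chromosome 20, 4087618 to 4097190, plus strand) was at 56.3 and 46.1 CPM untreated, 25.2 and 15.8 CPM with gefitinib, and 47.3 and 26.3 CPM with afatinib. All gefitinib values were below the other groups, and afatinib replicate 2 sat just above gefitinib replicate 1. The log2 fold changes were −1.32 ± 0.37 with gefitinib (edgeR adjusted p = 0.0482) and −0.48 ± 0.36 with afatinib (95% interval −1.32 to 0.37; edgeR adjusted p = 0.472). The α to β ratio in FPKM, RT1-Da over RT1-Db1, was 2.72 and 2.13 untreated, 2.28 and 2.53 with gefitinib, and 2.73 and 3.03 with afatinib. Gefitinib lay inside the untreated range of this ratio, and afatinib lay at or above its top.

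**Figure D1:**
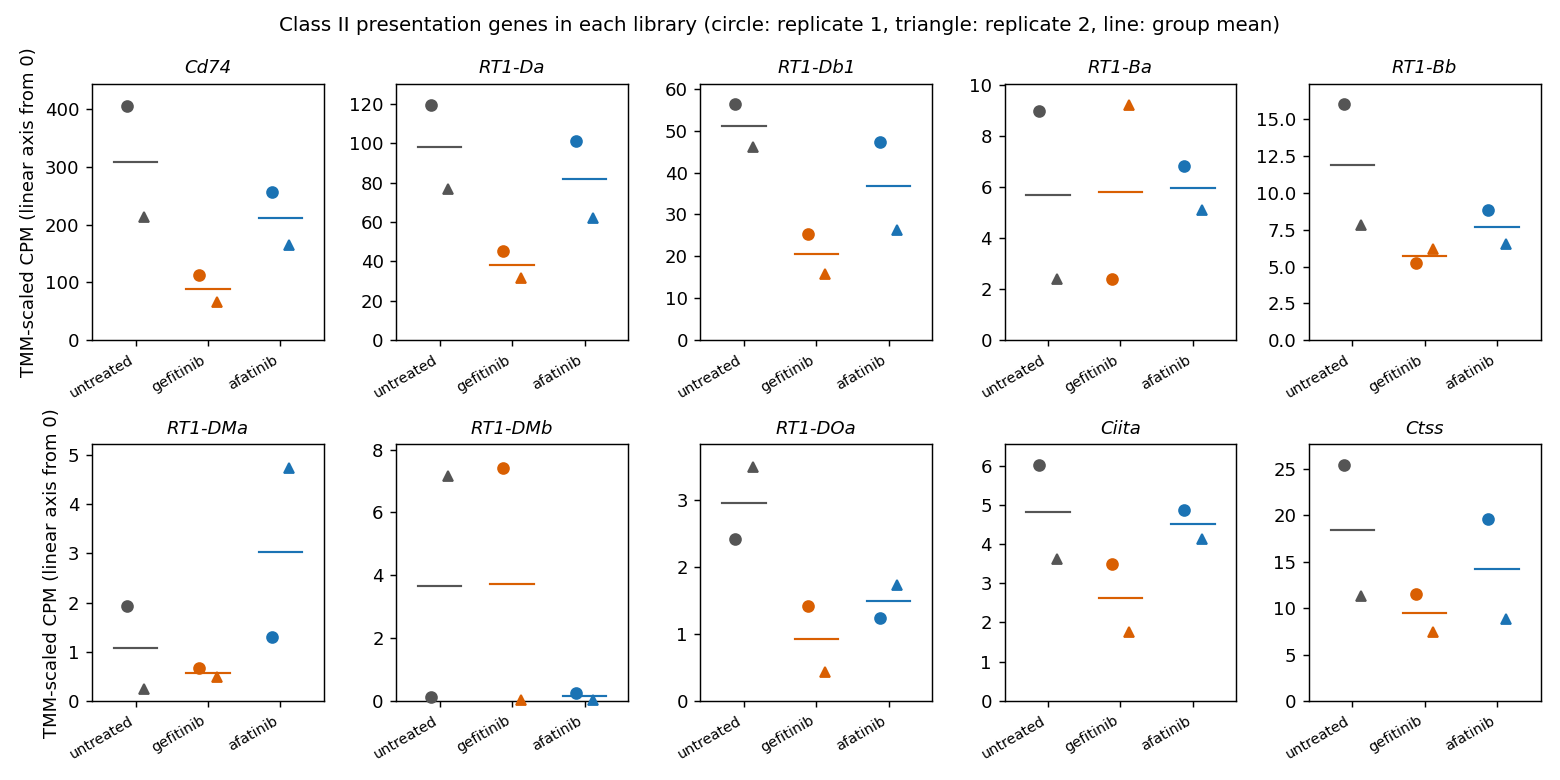
Each panel plots 1 gene, with TMM-scaled CPM on the vertical axis from 0 and the 3 groups on the horizontal axis; each point is 1 library and each line the mean of 2. In the Cd74, RT1-Da and RT1-Db1 panels both gefitinib points lie below all others, at 65.5 and 113 CPM for Cd74, while RT1-DMa and RT1-DMb scatter within groups.

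The other classical molecule did not move as a pair. RT1-Bb, its β chain (ENSRNOG00000032708, chromosome 20, 4039413 to 4049711, plus strand), was at 16.04 and 7.80 CPM untreated, 5.25 and 6.21 CPM with gefitinib, and 8.84 and 6.52 CPM with afatinib. The gefitinib libraries lay below both other groups, at a log2 fold change of −1.05 ± 0.43 that missed the threshold (edgeR adjusted p = 0.121). RT1-Ba, the α chain (ENSRNOG00000000451, chromosome 20, 4066132 to 4070721, minus strand), was at 8.99 and 2.39 CPM untreated, 2.39 and 9.23 CPM with gefitinib, and 6.82 and 5.09 CPM with afatinib. Its groups overlapped fully, and its log2 fold change with gefitinib was 0.03 ± 0.77 (edgeR adjusted p = 0.978). RT1-Ba over RT1-Bb in FPKM was 1.67 and 0.910 untreated, 1.35 and 4.42 with gefitinib, and 2.30 and 2.32 with afatinib. The highest of these came from gefitinib replicate 2, which had the most RT1-Ba of all libraries and the least Cd74. RT1-Ba varied widely within groups, with 130 and 41 counts untreated and 61 and 211 with gefitinib. Whether reads at these class II loci were counted alike in every library was not tested.

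Cd74 and the 4 classical chains summed to 371 and 204 FPKM in untreated skin, 107 and 72.7 FPKM with gefitinib, and 241 and 149 FPKM with afatinib. As a share of all counts they took 0.0435% and 0.0269%, 0.0246% and 0.0142%, and 0.0376% and 0.0370%, in the same order. The FPKM sum of each gefitinib library was below every other library, and the afatinib sums overlapped the untreated ones. Within the sum, Cd74 over RT1-Da in FPKM was 6.09 and 4.96 untreated, 4.49 and 3.76 with gefitinib, and 4.56 and 4.78 with afatinib. All 4 inhibitor libraries were below both untreated ones, which gave p = 0.133 in a two-sided exact permutation test, the smallest p that 2 against 4 libraries allow.

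The peptide editors were measured poorly. RT1-DMa (ENSRNOG00000047854), the DM α chain, had 28 and 4 counts untreated, 17 and 11 with gefitinib, and 20 and 123 with afatinib. RT1-DMb (ENSRNOG00000051002), the DM β chain, had 2 and 123 counts untreated, 189 and 1 with gefitinib, and 4 and 1 with afatinib. The highest RT1-DMa library, afatinib replicate 2, had 1 RT1-DMb count, although their products work as a pair. The edgeR log2 fold changes carried SEs of 0.98 to 2.33, and none passed (adjusted p = 0.285 to 0.993 against untreated).

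Each DM gene has a look-alike locus in the count table. LOC108348139 (chromosome 20, 3945601 to 3952846) spans 7246 bases, exactly as RT1-DMb does (5227045 to 5234290), on the other strand. LOC108348072 (5240975 to 5244386) spans 3412 bases against 3387 for RT1-DMa (3935529 to 3938915). Reads may be split between such loci by counting, so values of either alone are uncertain. RT1-DMb held 1 of 95 reads of its pair in gefitinib replicate 2 but 189 of 194 in gefitinib replicate 1. Summed with LOC108348139, RT1-DMb counts were 3 and 178 untreated, 194 and 95 with gefitinib, and 132 and 181 with afatinib. Summed RT1-DMa counts were 39 and 110 untreated, 26 and 16 with gefitinib, and 25 and 137 with afatinib. Untreated replicate 1 remained nearly without RT1-DMb reads in the sum. Summing, chosen after the values were seen, turned the afatinib log2 fold change of RT1-DMb from −4.75 to 0.55 and that of RT1-DMa from 1.51 to −0.39. LOC108348072 by itself was lower for the mean of both inhibitors (log2 fold change −3.27 ± 0.79, edgeR adjusted p = 0.0349), a value subject to the same split.

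**Figure D2:**
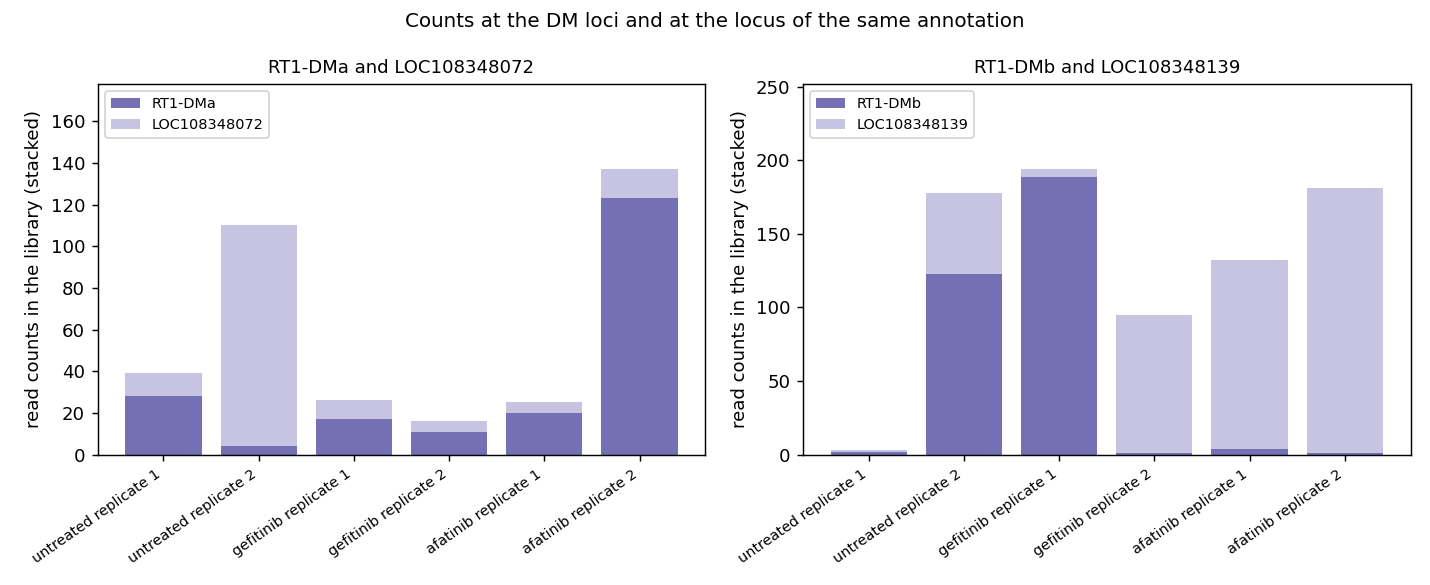
Stacked bars give counts per library on a vertical axis from 0, for RT1-DMb with LOC108348139 and for RT1-DMa with LOC108348072. The reads of RT1-DMb and its look-alike change places between the gefitinib libraries, from 189 of 194 to 1 of 95. RT1-DMb held 66.7% and 69.1% of 3 and 178 reads untreated, and 3.03% and 0.552% with afatinib.

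RT1-DOa (ENSRNOG00000026762), the α chain of DO, was at 2.42 and 3.49 CPM untreated, 1.41 and 0.438 CPM with gefitinib, and 1.23 and 1.74 CPM with afatinib. It was the only 1 of the 10 genes whose untreated libraries both lay above all 4 inhibitor libraries, against 18.8% of all genes. Its log2 fold changes of −1.67 ± 0.66 with gefitinib and −0.98 ± 0.65 with afatinib missed the threshold (edgeR adjusted p = 0.116 and 0.415). Its partner RT1-DOb, not among the 10, had 42 and 20 counts untreated, 34 and 6 with gefitinib, and 18 and 35 with afatinib. The class II loci RT1-Ha and RT1-Db2 had 0 counts in all 6 libraries, where 3 counts correspond to 0.116 to 0.207 CPM as an upper limit for counting error only.

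Ciita (ENSRNOG00000002659, chromosome 10, 5213350 to 5260608, minus strand), the coactivator of the chain genes, was at 6.02 and 3.61 CPM untreated, 3.49 and 1.75 CPM with gefitinib, and 4.87 and 4.13 CPM with afatinib. Gefitinib libraries were the lowest, by a narrow margin over untreated replicate 2. The log2 fold change was −0.87 ± 0.50 with gefitinib and −0.10 ± 0.50 with afatinib (edgeR adjusted p = 0.241 and 0.927). Ctss (ENSRNOG00000021157, chromosome 2, 197655786 to 197679458, plus strand), the protease that trims the invariant chain, was at 25.4 and 11.3 CPM untreated, 11.6 and 7.44 CPM with gefitinib, and 19.6 and 8.87 CPM with afatinib. Its groups overlapped, and the log2 fold change of −0.95 ± 0.52 with gefitinib missed the threshold (edgeR adjusted p = 0.225).

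Across the 10 genes the gefitinib log2 fold changes had a median of −1.002, against 0.04 for all genes tested, and 8 were below 0. Libraries of the 2 groups did not overlap for 6 of the 10 (Cd74, RT1-Da, RT1-Db1, RT1-Bb, RT1-DOa and Ciita), all lower with gefitinib, against 33.9% of all genes. At an unadjusted p under 0.05 there were 5, against 37.2% of all genes in either direction. With afatinib the median was −0.43, against 0.09 for all genes. There 1 of the 10 was lower without overlap, against 21.8%, and 0 reached an unadjusted p under 0.05, against 21.9%. DESeq2 and limma-voom also called 0 of the 10 with afatinib. DESeq2 called 1945 of 17104 genes there, but limma-voom only 34 of 16398, so its 0 says little about the 10. These inhibitor comparisons share the untreated libraries, so their values stand side by side and not as independent support.

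For the mean of both inhibitors against untreated, 0 of the 10 passed edgeR's test, where 16% of all genes passed (4.93% lower). Cd74 came nearest with a log2 fold change of −1.17 ± 0.37 (edgeR adjusted p = 0.0724), then RT1-Db1 with −0.90 ± 0.30 (edgeR adjusted p = 0.0829). At an unadjusted p under 0.05 there were 5, against 35.2% of all genes in either direction. RT1-DOa was lower and none higher without overlap, against 18.8% lower and 27.2% higher of all genes. DESeq2 called 2 of the 10, both lower, against 4092 of 17536 genes tested that it called in either direction.

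Afatinib against gefitinib asks whether the inhibitors left different levels, at unlike doses. None of the 10, and 0% of all genes, passed edgeR's test, although 946 genes (5.77%) had an unadjusted p under 0.05 and DESeq2 called 28 genes, none of them among the 10. Among the 10, 3 had an unadjusted p under 0.05: Cd74, RT1-Da and RT1-DMa, the last with a log2 difference of 2.40 ± 1.01 (edgeR adjusted p = 0.787) that is uncertain for its look-alike locus. Cd74 had a log2 difference of 1.24 ± 0.45 (95% interval 0.18 to 2.31; edgeR adjusted p = 0.787), RT1-Da 1.09 ± 0.36 (0.25 to 1.94; 0.787) and RT1-Db1 0.84 ± 0.36 (−0.01 to 1.69; 0.787), all higher with afatinib. Both afatinib libraries lay above both gefitinib libraries for 6 of the 10, against 17.1% of all genes, and below them for none, against 19.9%. An effect with gefitinib and none passing with afatinib therefore does not show a difference between the inhibitors, whose direct test none of the 10 passed.

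**Figure D3:**
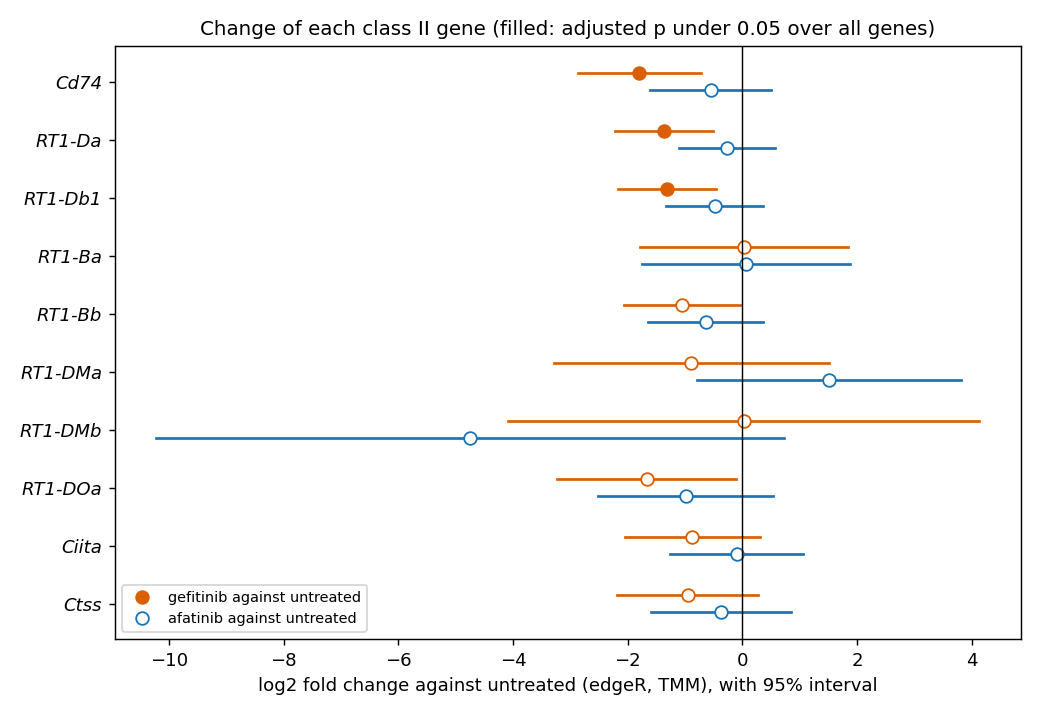
Points give the log2 fold change of each gene with its 95% interval for both inhibitors against untreated, and the vertical line marks 0. Filled points (Cd74, RT1-Da and RT1-Db1 with gefitinib) have an adjusted p under 0.05; the gefitinib intervals of RT1-Bb and RT1-DOa also lie below 0, and those of RT1-DMb are the widest.

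The calls depended on how libraries were scaled to each other. TMM factors ran from 0.717 and 0.778 in untreated to 1.29 and 1.11 in gefitinib and 0.895 and 1.39 in afatinib libraries. With library size alone the median of all genes moved up by 0.68 for gefitinib and 0.62 for afatinib on the log2 scale. Cd74 then had −1.06 with gefitinib (edgeR adjusted p = 0.106), RT1-Da −0.65 (0.224) and RT1-Db1 −0.60 (0.276). Measured from the median of all genes, Cd74 stood at −1.79 with library size alone and −1.84 with TMM, and RT1-Da at −1.37 and −1.40. With afatinib the direction of Cd74, RT1-Da, RT1-Db1, Ciita and Ctss against 0 turned to higher under library size alone.

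Other genes of the pathway were read from lists that are not independent of earlier results on these libraries. Among the factors that assemble on class II promoters, 2 of 6 tested genes were higher with gefitinib, where 12.3% of all genes were higher, and 0 lower. They were Nfya, a subunit of the Y box factor NF-Y, at 17.1 and 16.5 CPM untreated, 38.5 and 37.5 CPM with gefitinib and 23.4 and 36.4 CPM with afatinib (gefitinib log2 fold change 1.18 ± 0.28, edgeR adjusted p = 0.0313), and Nfyb, another NF-Y subunit (0.88 ± 0.22, 0.0355). Nfyc, the remaining NF-Y subunit, was at 63.6 and 72.3 CPM untreated and 39.8 and 59.3 CPM with gefitinib, with a log2 fold change of −0.46 ± 0.29 that did not pass (edgeR adjusted p = 0.289).

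Of 11 tested genes that induce or repress Ciita, 1 was higher and 1 lower with gefitinib, where 12.3% of all genes were higher and 5.45% lower. Prdm1, a transcriptional repressor known to act on Ciita in plasma cells, was at 3.53 and 3.55 CPM untreated, 19.5 and 18.4 CPM with gefitinib, and 8.64 and 25.0 CPM with afatinib. All inhibitor libraries lay above the untreated ones, and the log2 fold change was 2.42 ± 0.50 with gefitinib (edgeR adjusted p = 0.0230) and 2.25 with afatinib (edgeR adjusted p = 0.0547). Jak1, a kinase of interferon receptors, was at 123 and 147 CPM untreated, 64.7 and 52.2 CPM with gefitinib, and 99.9 and 90.5 CPM with afatinib, with a gefitinib log2 fold change of −1.21 ± 0.26 (edgeR adjusted p = 0.0251). Ifng, the cytokine best known for inducing Ciita, had 0 counts in all 6 libraries, below the limit given above for RT1-Ha.

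Among 10 tested genes of peptide supply and turnover, none passed with either inhibitor. The smallest p there was that of Ctsf, a cathepsin, with a log2 fold change of −0.99 (edgeR adjusted p = 0.054). Of 6 tested co-stimulatory ligands 1 fell with gefitinib, where 5.45% of all genes were lower. It was Icoslg, the ligand of ICOS on T cells, at 33.5 and 21.3 CPM untreated, 9.33 and 5.21 CPM with gefitinib, and 14.0 and 9.37 CPM with afatinib (gefitinib log2 fold change −1.91 ± 0.41, edgeR adjusted p = 0.0252). Of 18 tested genes of class I presentation, which shows cytosolic peptides to CD8 T cells, 2 fell with gefitinib, against the same 5.45%. They were the class I gene RT1-S3 (log2 fold change −1.74, edgeR adjusted p = 0.0361), whose family holds near-identical copies, and the peptide trimmer Erap1 (−0.93, edgeR adjusted p = 0.0317). B2m, the light chain of class I, had a log2 fold change of −0.75 (edgeR adjusted p = 0.221). None of the genes in these pathway lists passed with afatinib, where 3.98% of all genes passed. The gefitinib calls in them were all lost without untreated replicate 1, untreated replicate 2 or gefitinib replicate 2. Without gefitinib replicate 1 only 1 co-stimulatory and 1 class I gene passed. With library size only, 0 genes of these lists were lower, while 3 promoter factors, 1 regulator of Ciita and 1 class I gene were higher. In that setting 3262 of 16398 genes were called with gefitinib in either direction. The median log2 fold change of all genes was then 0.73, so calls as higher were favoured in general.

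In a piece of skin, fewer cells of a type and less RNA per cell cannot be told apart, so markers of the cells that carry class II were set beside these genes. With gefitinib, 0 of 10 pan-leukocyte, 0 of 9 dendritic and Langerhans cell and 0 of 12 macrophage markers tested passed, where 17.7% of all genes passed. Their median log2 fold changes were −0.24, −0.55 and −0.34, in that order. Summed pan-leukocyte markers ranged from 141 to 197 CPM untreated, 110 to 151 with gefitinib and 206 to 238 with afatinib. Dendritic and Langerhans cell markers summed to 59.2 to 71.9, 47.7 to 64.8 and 60.3 to 86.2 CPM in the same order, and macrophage markers to 341 to 530, 219 to 400.6 and 358 to 607 CPM. Gefitinib ranges were the lowest but overlapped the untreated ranges in all 3 lists. Their part in the lower class II level was not tested.

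Defining markers differed in pattern. Ptprc, the pan-leukocyte phosphatase CD45, was at 8.30 and 3.96 CPM untreated, 7.29 and 3.50 CPM with gefitinib, and 9.10 and 14.7 CPM with afatinib. Cd207, langerin of Langerhans cells, was at 4.495 and 2.21, 8.19 and 4.55, and 3.51 and 11.1 CPM in the same order, and Adgre1 of macrophages at 6.57 and 3.08, 2.20 and 1.31, and 5.59 and 0.733 CPM. Both gefitinib libraries had more Cd207 than either untreated library, with a log2 fold change of 0.93 ± 0.65 that did not pass the test (edgeR adjusted p = 0.328). Most of its list went the other way, with 6 of 9 tested genes below 0, among them Zbtb46 at −0.94 and Batf3 at −0.90 on the log2 scale, neither passing. Of the macrophage list 8 of 12 were below 0, with Adgre1 at −1.45, while Mertk at 0.59 and Cd14 at 0.52 were above it, again with none passing. B cell markers were near 0: Ms4a1 had 0 counts in each untreated and gefitinib library and 3 and 1 with afatinib, and only 2 of 7 found in the files were tested. The summed B cell list reached 19.1 CPM in gefitinib replicate 1, of which Fcrla gave 442 counts, and 0.263 to 4.03 CPM elsewhere. Cd3e, a chain of the T cell receptor complex, had 22 and 9 counts untreated, 21 and 1 with gefitinib, and 9 and 37 with afatinib. The whole T cell list had a median log2 fold change of 0.44 with gefitinib, where 4 of 9 tested genes were below 0, and of 1.15 with afatinib, where 0 of 9 were. Its sums were 18.9 and 9.43 CPM untreated, 15.3 and 11.6 with gefitinib, and 30.3 and 23.9 with afatinib. Zap70, a kinase of T cell receptor signalling, was the 1 gene of the list higher with each inhibitor, at 2 and 1 counts untreated, 26 and 45 with gefitinib, and 26 and 51 with afatinib (edgeR adjusted p = 0.0226 and 0.0412). Of all genes 12.3% were higher with gefitinib and 3.6% with afatinib. Zap70 had enough counts to be tested only through the inhibitor libraries, so a call as lower was not open to it.

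Ratios within a library do not depend on scaling between libraries. Cd74 counts per Ptprc count were 48.9 and 53.7 untreated, 15.4 and 18.7 with gefitinib, and 28.2 and 11.3 with afatinib. Cd74 per count of Laptm5, a lysosomal protein of leukocytes, was 10.9 and 8.09, 4.17 and 3.65, and 6.39 and 5.87 in the same order. Cd74 and the 4 chains per pan-leukocyte marker count were 3.08 and 2.44, 1.26 and 1.162, and 1.77 and 1.29. In each of these ratios both untreated libraries lay above all 4 inhibitor libraries. For Cd74 per Ptprc and Cd74 per Laptm5 that gave p = 0.133 in a two-sided exact permutation test, again the smallest the design allows, and 0.133 after adjustment over the 3 ratios tested. Full separation fixes this p, so it adds nothing to the separation itself, and the other ratios here were not tested. The separation was not shared by every denominator: Cd74 per Cd48, another leukocyte surface gene, was 6.83 and 4.17 untreated, 3.61 and 4.34 with gefitinib and 6.45 and 5.49 with afatinib, which overlap. Cd74 per B2m was 0.677 and 0.417 untreated, 0.292 and 0.239 with gefitinib and 0.399 and 0.449 with afatinib, where only gefitinib lay apart. Both afatinib libraries had more Ptprc and more summed pan-leukocyte markers than either untreated library, while Cd74 itself overlapped. RT1-Da per Cd207 was 26.6 and 34.8 untreated and 5.51 and 6.89 with gefitinib, but 28.8 and 5.59 with afatinib, where the libraries split. These denominators were chosen with values in view.

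**Figure D4:**
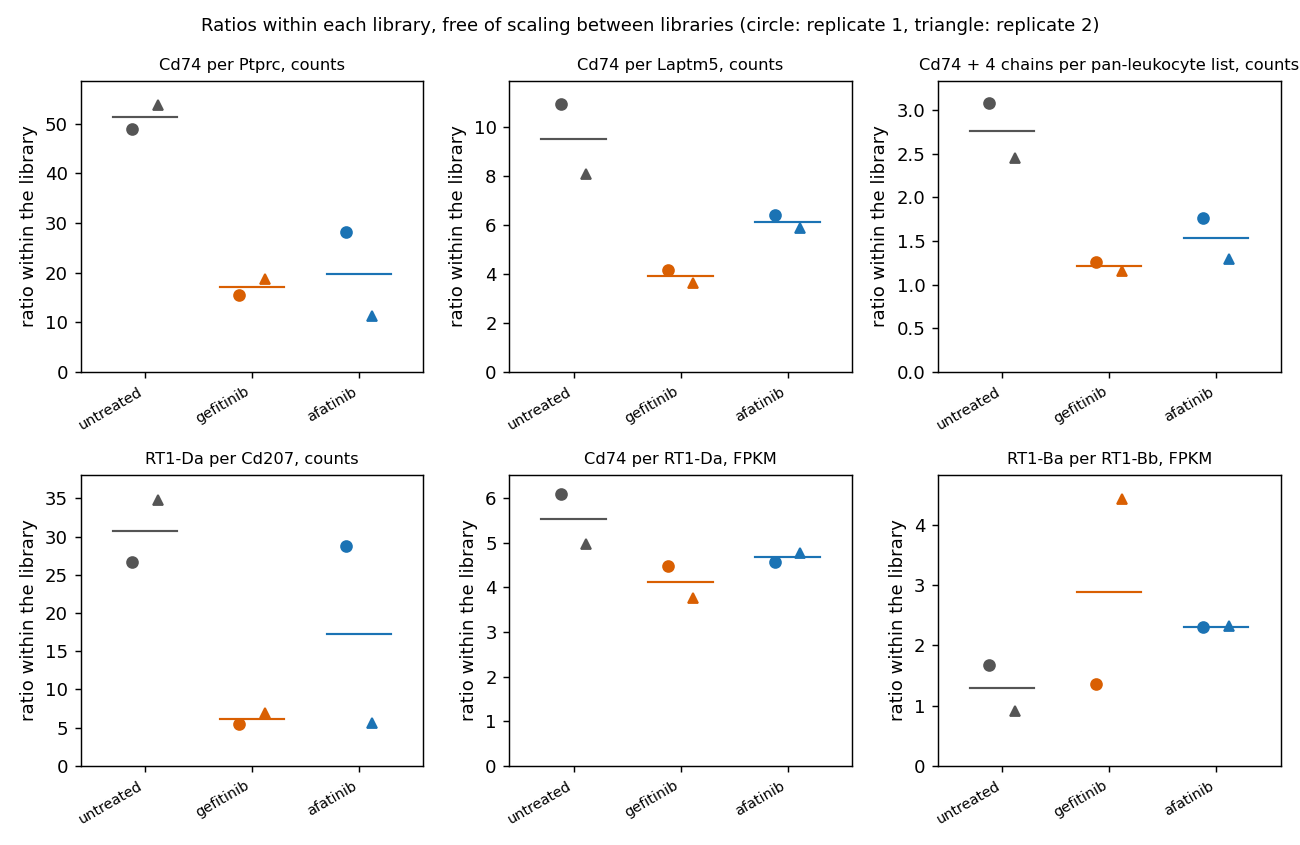
Each panel plots a ratio within a library on a vertical axis from 0, with 1 point per library in 3 groups and lines at the mean of 2 libraries. Cd74 per Ptprc count is 48.9 and 53.7 in untreated libraries and 11.3 to 28.2 in the 4 inhibitor libraries.

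Markers of other cells in the tissue also differed between groups. Neutrophil markers summed to 13.3 and 10.01 CPM untreated, 719 and 1275 with gefitinib and 1926 and 1689 with afatinib. Of 6 tested, 4 were higher with each inhibitor, against 12.3% of all genes with gefitinib and 3.6% with afatinib. Cxcr2 and Mmp8, among the 6, each had 2 and 0 counts untreated and were tested only through inhibitor libraries. S100a8 and S100a9, which stressed keratinocytes also make, gave 375 and 333 CPM of that sum in gefitinib replicate 1 and 646 and 619 CPM in gefitinib replicate 2. Itgam, an integrin chain in the same list, was at 5.46 and 3.32 CPM untreated and 2.86 and 1.58 CPM with gefitinib (log2 fold change −0.98, edgeR adjusted p = 0.190). Keratinocyte markers had 3 of 7 higher with gefitinib, against 12.3% of all genes, and endothelial markers 3 of 6 lower, against 5.45%. The endothelial markers summed to 475 and 387 CPM untreated, 205 and 71.9 with gefitinib and 282 and 238 with afatinib. Skeletal muscle markers summed to 207307 and 183711 CPM untreated, 28014 and 58525 with gefitinib and 127254 and 29392 with afatinib, with 0 of 8 passing, and fibroblast markers to 20974 and 9908, 6012 and 1175, and 8685 and 3123 CPM. These differences in makeup stand beside the class II values, and their part in them was not tested.

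Genes outside the 10 whose course over the 6 libraries was nearest to the mean course of Cd74 and the 4 chains were ranked by root mean square difference of centred log2 CPM, among 5644 candidates. Candidates were tested genes with a mean of at least 10 CPM and an SD at least 0.5 of that of the mean course. Predicted and unnamed loci were passed over, and genes at lower levels could not be named. The nearest were Per3 (0.145), Trim5 (0.172), Cc2d2a (0.186), Tpt1 (0.191), Rgs10 (0.192), Pik3ap1 (0.194), Lyn (0.196) and Gba2 (0.200). Within the family the same difference was 0.173 for RT1-Bb, 0.232 for RT1-Da, 0.281 for Ctss, 0.313 for RT1-Db1, 0.338 for Ciita and 0.374 for Cd74. It was 0.763 for RT1-Ba, 0.795 for RT1-DOa, 1.26 for RT1-DMa and 3.09 for RT1-DMb, the genes that kept least to the course. Of the 8, Trim5 passed with gefitinib (log2 fold change −1.21, edgeR adjusted p = 0.0311). The 5 genes that define the mean course are part of it, and 6 libraries leave many genes near it.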

How the data were processed

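Messenger RNA of back skin was sequenced in 6 libraries, 2 each from untreated, gefitinib and afatinib rats. Per the labels' protocols, tissue was flash frozen, extracted with Trizol and made into TruSeq libraries from 1 ug of RNA. The submitters' processing notes name DESeq2 1.16.1, featureCounts 1.5.0-p3 and HISAT2 2.0.5 without their roles. Build, annotation and strandedness: not given in the sources used here. Deposited counts are whole reads per gene, unscaled. The deposited FPKM are the authors' counts over gene length and a divisor per library, checked to be proportional to its DESeq2 size factor.

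Totals ran from 17206456 to 22086673 counts, with 1.68% to 2.54% in 1342 loci without a name, which stayed in library sizes and tests. Counts passing filterByExpr were TMM-scaled and fitted with edgeR 4.0.16 (quasi-likelihood, 1 term per group, all 6 libraries) in R 4.3.3. Tests were two-sided, with Benjamini-Hochberg adjustment over 16398 loci and a threshold of 0.05. SEs were derived from the F statistics. The test was run on simulated counts first. DESeq2 1.42.0 and limma 3.58.1 (voom) were alternatives, with other scalings, no filter, only the groups compared, a replicate block and each library left out. The limit given for genes at 0 covers counting error only.

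The 10 genes, the other lists and the ratios were chosen with earlier results of these data known. All 10 genes are named. From each other pathway list, genes that passed with either inhibitor were named, up to 4 by smallest p, or the one with the smallest p where none passed. B2m, Ifng, Fcrla, Ms4a1, Laptm5, Cd48, Nfyc, Zbtb46, Batf3, Mertk, Cd14, Zap70, Itgam, S100a8 and S100a9 were named outside that rule, after their values were seen. Ratios between genes were tested only for 3, by exact permutation. Promoter letters come from RefSeq (GRCr8), searched with Python 3.11.15.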

Additional observations from a re-analysis of the deposited data

How the results depend on the processing

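The count of genes lower with gefitinib was 3 of 10. It was 0 with library size only and 0 to 3 when a library was left out (0 without untreated replicate 1 or 2 or gefitinib replicate 1 or 2). For afatinib it was 0, but 1 (RT1-DMb) with no filter on low counts, and 0 to 0 with a library left out. For the mean of both inhibitors it was 0, but 2 with DESeq2, 2 with no filter and 2 with the replicate block, and 0 to 3 with a library left out (3 without afatinib replicate 1). For afatinib against gefitinib it was 0 under every alternative run. The cause of these shifts was not tested. Over all genes the calls with gefitinib ranged from 0 to 5320 around 2906, with afatinib from 0 to 3653 around 652, and for the mean from 3 to 5809 around 2618.

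Nothing in the labels used here links same-numbered libraries beyond their number, and whether they share a batch was not tested. Their deviations from the group means correlated at 0.04, 0.02 and −0.16 over the pairs of groups. With the replicate number as a block, 3 genes were lower with gefitinib and 2298 of all genes passed. Nfyb (edgeR adjusted p = 0.0585) and Erap1 (0.051) then missed the threshold. Of the genes of peptide supply, 0 lower with gefitinib, 3 were lower with DESeq2, 3 with only the groups compared, 2 with no filter and 1 with the block. Calls over all genes with gefitinib, in either direction, also rose in the first of these settings. They were 4509 of 17968 with DESeq2, 5286 of 15853 with only the groups compared and 4550 of 22290 with no filter.

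Log2 fold changes that turned sign were mostly those of RT1-Ba, RT1-DMa and RT1-DMb. With gefitinib, RT1-Ba was −0.00239 with RLE scaling and −1.32 to 1.28 with a library left out, RT1-DMa −1.74 to 1.28 with a library left out. RT1-DMb was −0.0384 with RLE scaling, −0.0254 with DESeq2, −0.70 with limma-voom, −1.27 with the replicate block and −6.25 to 4.70 with a library left out. With afatinib, library size only gave 0.012 for Cd74, 0.28 for RT1-Da, 0.04997 for RT1-Db1, 0.51 for Ciita and 0.14 for Ctss. Leaving out a library gave −0.66 to 0.0806 for RT1-Da, −0.42 to 0.31 for Ciita, −1.05 to 0.32 for Ctss and −0.60 to 1.31 for RT1-Ba, which RLE scaling put at −0.00456. Summing alike DM loci gave −0.39 for RT1-DMa and 0.55 for RT1-DMb. For the mean, RT1-Ba was −0.00347 with RLE scaling and −0.67 to 1.29 with a library left out. RT1-DMa was −1.39 summed and −0.54 to 2.48 with a library left out, RT1-DMb 0.35 summed and −5.53 to 2.32. Ciita was 0.18 with library size only, and Ctss −1.13 to 0.0314 with a library left out. For afatinib against gefitinib, RT1-Ba was −0.017 with library size only, −0.00217 with RLE scaling, −0.00639 with DESeq2, −0.0161 with the replicate block and −0.67 to 1.304 with a library left out. RT1-DMb was 0.40 summed and −6.40 to 1.43 with a library left out, and Ctss −0.11 to 1.06.

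RT1-DMa, RT1-DMb and RT1-DOa held 203, 320 and 205 counts over all libraries, against 22116 for Cd74. Within groups RT1-DMb ranged from 2 to 123 and from 1 to 189 counts; what part depth has in the spread of these genes was not tested.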
